A study of Mus musculus with 6 samples.

Results

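Genes that encode chondroitin sulphate proteoglycans, their link and adaptor proteins, and tenascins were followed in lesions of the mouse cortex, 10 in all. The members were chosen by name: the lecticans Acan, Vcan, Bcan and Ncan, the membrane proteoglycans Cspg4 and Ptprz1, the partner proteins Hapln1 and Matn4, and the tenascins Tnc and Tnr. They are 10 of 32285 genes in the count tables. The rule that lists them uses no measured value, though the members were chosen with earlier results of these data known. Single-nucleus RNA was profiled from cortical lesions made by photothrombotic (PT) injury, in which light and a dye close cortical vessels. Groups were Ctrl (WT, untreated), ADWA11 (WT given an antibody that blocks integrin αvβ8 weekly from the day of injury) and cKO (Col1a2(creER); Tgfbr2(flox), in which tamoxifen-induced Cre removes the type II TGFβ receptor from cells that use the collagen 1 promoter), each at 7 and 21 days post-injury (dpi). The adult mice were 7 to 21 weeks old, and all groups had the injury. Each group was 1 library of sorted nuclei from 1 male and 1 female mouse processed together, so that no difference below was tested across mice.

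Lecticans are large secreted proteoglycans that bind hyaluronan at one end and tenascins at the other, and link proteins such as Hapln1 lock them onto hyaluronan. In the healthy brain they form the perineuronal nets and the matrix at nodes of Ranvier. After injury, reactive astrocytes, oligodendrocyte precursors and scar fibroblasts are each known to deposit members of this group, whose sulphated chains restrain growing axons. The question put to the counts was how the RNA of each member is divided between fibrotic and glial nuclei. It was also asked how far each source differed when Tgfbr2 was targeted in fibroblasts or when αvβ8, which activates TGFβ, was blocked.

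The 6 libraries held 7205 to 14246 barcodes with median UMI counts of 4601.5 to 8222.5, and the filters kept 61906 nuclei in all. Pairs of libraries shared 17 to 51 barcodes, at most 0.447% of the smaller library. Classes were named "-like" from marker genes that contain none of the 10 members, and the members were also left out of the genes used for clustering. Levels are in CPM, the UMIs of a gene scaled to all non-mitochondrial UMIs of its class in 1 library, with exact Poisson 95% intervals. A member was called higher or lower when its log2 ratio passed 2-fold, the exact conditional 95% interval of the ratio left out 0 and the pair of libraries held at least 20 UMIs of it. All these intervals cover counting error only. Fibroblast-like nuclei numbered 1930 (Ctrl), 2564 (ADWA11) and 328 (cKO) at 7 dpi, and 4324, 2928 and 907 at 21 dpi. The libraries held 148 to 975 astrocyte-like nuclei and 31 to 888 oligodendrocyte precursor-like nuclei, the fewest in ADWA11 at 21 dpi. The cKO library at 7 dpi stood apart, with neuron-like nuclei holding 76.2% of its UMIs. In fibroblast-like nuclei Tgfbr2 itself measured 318, 245 and 235 CPM in Ctrl, ADWA11 and cKO at 7 dpi, then 223, 195 and 187 CPM at 21 dpi. Reads of its 3′ end need not cover the floxed part, so these levels do not check the deletion.

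Acan, Vcan, Matn4, Tnc and Cspg4 were above background in fibroblast-like nuclei of several libraries, where background is the level in myeloid-like nuclei of the same library, or in T and NK cell-like nuclei for Cspg4, which myeloid-like nuclei carry themselves. Acan was above background in 4 of 6 libraries, Cspg4 in 3, Matn4 in 5, and Vcan and Tnc in 6. Hapln1 was above it in 1 library, Ctrl at 7 dpi, at 2.44 CPM. Bcan, Ncan, Ptprz1 and Tnr were at or below background in fibroblast-like nuclei of all 6 libraries. The promoters of Acan, Tnc and Cspg4 are printed as those of a lectican, a tenascin and a membrane proteoglycan that were called lower in fibroblast-like nuclei of both cKO libraries. Each runs from 250 bases before to 50 bases after a RefSeq start site, on GRCm38.p6 and on the gene's own strand, with the SMAD-type letters CAGACA, or TGTCTG on the other strand, in capitals.
Acan, chr7:79052976-79053275, plus strand: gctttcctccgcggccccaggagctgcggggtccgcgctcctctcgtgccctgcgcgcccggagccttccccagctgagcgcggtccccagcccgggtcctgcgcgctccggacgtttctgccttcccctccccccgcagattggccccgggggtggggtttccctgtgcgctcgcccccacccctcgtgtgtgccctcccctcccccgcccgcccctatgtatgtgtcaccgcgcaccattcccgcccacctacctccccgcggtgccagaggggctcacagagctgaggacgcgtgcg
Tnc, chr4:64046887-64047186, minus strand: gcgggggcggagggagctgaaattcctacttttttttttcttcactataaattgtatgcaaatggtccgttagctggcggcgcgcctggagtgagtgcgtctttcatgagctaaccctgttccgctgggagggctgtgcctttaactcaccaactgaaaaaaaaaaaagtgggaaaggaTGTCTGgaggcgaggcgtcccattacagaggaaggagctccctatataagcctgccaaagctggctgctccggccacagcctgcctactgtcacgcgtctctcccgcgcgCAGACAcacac
Cspg4, chr9:56864854-56865153, plus strand: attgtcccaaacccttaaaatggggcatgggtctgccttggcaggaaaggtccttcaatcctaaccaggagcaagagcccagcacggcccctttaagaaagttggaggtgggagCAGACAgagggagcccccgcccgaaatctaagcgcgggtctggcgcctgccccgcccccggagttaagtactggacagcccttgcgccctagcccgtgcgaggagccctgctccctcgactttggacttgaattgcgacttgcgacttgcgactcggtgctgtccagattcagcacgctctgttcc

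Of the 12 promoters RefSeq gave for the 10 members, 3 held CAGACA on either strand, against 21.0% of 32851 promoters of the same length. They were the Cspg4 promoter and 2 overlapping Tnc promoters, of which the printed one held 2 matches. Acan, the member with the largest ratios below, held none in its window. The SOX-type letters ACAAAG were found in 1 member promoter, that of Tnr, against 18.7% of all promoters, and AACAAT in 0 against 10.7%. The AP-1 letters TGACTCA were found in 0 of the 12 and in 5.202% of all. A match describes these letters only and is no evidence of a bound factor.

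Acan encodes aggrecan, the main proteoglycan of cartilage and of perineuronal nets, and lies at 7:79053483-79115099 on the plus strand of GRCm38 (ENSMUSG00000030607). In fibroblast-like nuclei it measured 53.8 CPM in Ctrl, 5.97 in ADWA11 and 0.941 in cKO at 7 dpi, then 22.4, 8.34 and 0.490 CPM at 21 dpi. Ctrl was highest and cKO lowest at both times, with both cKO libraries near 0. The counts behind them were 880, 156 and 2 UMIs at 7 dpi, then 695, 194 and 4 at 21 dpi. At 7 dpi the log2 ratio to Ctrl was -5.84 (-8.88 to -3.98) in cKO and -3.17 (-3.43 to -2.92) in ADWA11. At 21 dpi it was -5.52 (-7.39 to -4.15) and -1.43 (-1.66 to -1.20). The share of fibroblast-like nuclei with an Acan UMI showed the same order, 17.9% in Ctrl, 2.57% in ADWA11 and 0.305% in cKO at 7 dpi, then 9.37%, 3.69% and 0.441% at 21 dpi, at median depths of 5816 to 9667 UMIs. Myeloid-like nuclei, which should lack it, had shares of 0.0888% to 1.01% at median depths of 3356 to 6760 UMIs. Both cKO shares rested on few nuclei, 1 of 328 and 4 of 907, and neither cKO level was above background. Thinned to 1000 UMIs a nucleus, which left out at most 49 shallower fibroblast-like nuclei of a library, the fibroblast shares were 4.66%, 0.536% and 0.0659% at 7 dpi, then 2.03%, 0.798% and 0.0448% at 21 dpi. In nuclei called female and male, which stand for the 2 mice and leave out nuclei with no call, Acan was 52.2 and 50.4 CPM in Ctrl, 8.99 and 4.36 in ADWA11 and 0 and 2.24 in cKO at 7 dpi.

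Matn4 encodes matrilin 4, an adaptor protein of the pericellular matrix, and lies at 2:164389393-164405160 on the minus strand (ENSMUSG00000016995). Its fibroblast level was 53.3 CPM in Ctrl, 21.9 in ADWA11 and 1.88 in cKO at 7 dpi, then 137, 57.0 and 6.004 CPM at 21 dpi. It therefore stood higher at 21 than at 7 dpi in each of the 3 groups, unlike the 4 other members that fibroblast-like nuclei carried. The log2 ratios to Ctrl at 7 and 21 dpi were -4.83 (-6.70 to -3.46) and -4.52 (-4.95 to -4.11) in cKO, and -1.29 (-1.44 to -1.13) and -1.27 (-1.36 to -1.18) in ADWA11. Matn4 overlaps Rbpjl on the opposite strand, and Rbpjl was among the genes that lead the late fibroblast subtype described below. Vcan and Tnc likewise overlap Gm4117 and 8030451A03Rik on the opposite strand. Cell Ranger counts reads by strand as its default.

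Tnc encodes tenascin C, a glycoprotein of healing wounds, and lies at 4:63959785-64047015 on the minus strand (ENSMUSG00000028364). In fibroblast-like nuclei it measured 222, 97.3 and 57.4 CPM in Ctrl, ADWA11 and cKO at 7 dpi, then 106, 26.9 and 7.72 CPM at 21 dpi. The order Ctrl, ADWA11, cKO held at both times and in nuclei of both sexes. The log2 ratios to Ctrl at 7 and 21 dpi were -1.95 (-2.22 to -1.69) and -3.78 (-4.16 to -3.42) in cKO, and -1.19 (-1.26 to -1.11) and -1.98 (-2.10 to -1.86) in ADWA11. A few nuclei carried much of what was left, since 5 nuclei held 44.3% of the 122 Tnc UMIs in cKO at 7 dpi and 46.0% of the 63 at 21 dpi, against 16.0% and 11.03% in Ctrl.

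Vcan encodes versican, the lectican of loose connective tissue and of precursor cells, and lies at 13:89655312-89742509 on the minus strand (ENSMUSG00000021614). Its fibroblast level was 638 CPM in Ctrl, 484 in ADWA11 and 310 in cKO at 7 dpi, then 131, 33.8 and 34.7 CPM at 21 dpi. At 7 dpi only cKO passed the call, at a log2 ratio of -1.04 (-1.16 to -0.93), and ADWA11 was at -0.40. At 21 dpi both did, at -1.92 (-2.10 to -1.74) in cKO and -1.96 (-2.07 to -1.84) in ADWA11. The value in cKO at 7 dpi differed between the mice, with 434 CPM in female and 201 CPM in male nuclei, both under the 605 and 649 CPM of Ctrl.

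Cspg4 encodes the NG2 proteoglycan, a membrane protein of pericytes and oligodendrocyte precursors, and lies at 9:56865033-56899870 on the plus strand (ENSMUSG00000032911). It measured 35.7, 12.9 and 13.6 CPM in fibroblast-like nuclei of Ctrl, ADWA11 and cKO at 7 dpi, then 19.8, 10.7 and 7.72 CPM at 21 dpi. At 7 dpi both treatments were called lower, at log2 ratios of -1.39 (-1.98 to -0.85) in cKO and -1.47 (-1.67 to -1.28) in ADWA11. At 21 dpi cKO was lower by the call at -1.36 (-1.75 to -0.98) and ADWA11 was not, at -0.88. The background in T and NK cell-like nuclei moved in the same direction in ADWA11 at 7 dpi, at 11.8 CPM in Ctrl and 2.32 in ADWA11. At 21 dpi it did so in both treated groups, at 16.9, 2.75 and 1.98 CPM in Ctrl, ADWA11 and cKO. In cKO at 7 dpi it was 0 CPM, on 28 nuclei with 76633 UMIs, too few to show a fall. Cspg4 was not above background in Ctrl at 21 dpi or in either cKO library, at 7 dpi against those 28 nuclei only. The part of free RNA in these calls was not tested.

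**Figure D1:**
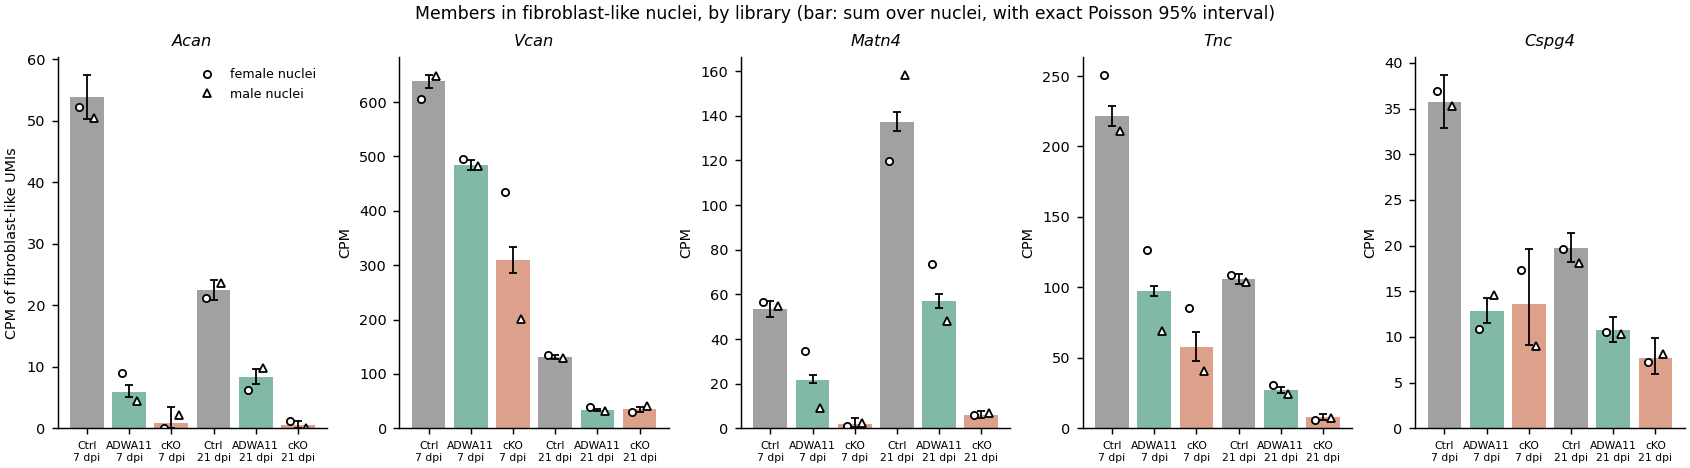
Levels of Acan, Vcan, Matn4, Tnc and Cspg4 in fibroblast-like nuclei, in CPM on axes from 0, with a bar per library (grey Ctrl, green ADWA11, orange cKO), exact Poisson 95% intervals as error bars, circles for nuclei called female and triangles for nuclei called male. For each gene and time both treated bars lie below the Ctrl bar, as for Acan at 7 dpi with 53.8, 5.97 and 0.941 CPM.

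In cKO against Ctrl, 5 of 9 members with enough UMIs were called lower at 7 dpi and 5 of 10 at 21 dpi, with 0 higher at either time. Of all genes tested, 2.51% and 6.31% were called lower in these comparisons, and 9.93% and 15.7% in either direction. In ADWA11 against Ctrl, 5 of 10 members were lower at 7 dpi and 7 of 10 at 21 dpi, again with 0 higher. The background was 2.85% and 3.27% of genes lower, and 9.09% and 7.21% in either direction. The median log2 ratio of the members tested was -1.39 and -1.38 in cKO at 7 and 21 dpi and -0.79 and -1.35 in ADWA11, beside 0.09, 0.00, 0.09 and 0.01 for all genes tested. The called members were Acan, Vcan, Cspg4, Matn4 and Tnc in cKO at both times, and Acan, Cspg4, Hapln1, Matn4 and Tnc in ADWA11 at 7 dpi. Of these, Cspg4 in cKO at 21 dpi was at background in both libraries compared. Hapln1 rested on 40 UMIs in Ctrl and 24 in ADWA11 at 7 dpi, 21 and 10 of them in 5 nuclei. Its ADWA11 level was at background. In ADWA11 at 21 dpi the called members were Acan, Vcan, Matn4 and Tnc together with Bcan, Ncan and Tnr, whose fibroblast levels were at background in every library. The members were chosen with earlier results of these data known, which limits the comparison with all genes. The cKO and ADWA11 ratios share the Ctrl libraries, so their likeness is no independent support. Acan, Vcan, Cspg4, Matn4 and Tnc were lower than Ctrl in nuclei of both sexes in all 4 treatment comparisons. These include differences that were not called, Vcan in ADWA11 at 7 dpi and Cspg4 in ADWA11 at 21 dpi. The share of all genes lower in both sexes is not given here. Fibroblast marker genes, 8 in all, summed to 11413, 9646 and 7051 CPM in fibroblast-like nuclei of Ctrl, ADWA11 and cKO at 7 dpi and to 10441, 8596 and 3706 CPM at 21 dpi. They stood in the same order as Acan, Matn4 and Tnc, and their part in the result was not tested.

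The fibroblast-like class was made up of different nuclei in the 3 groups. Of its 7 subtypes, the myofibroblast subtype gave 1040, 1207 and 130 nuclei in Ctrl, ADWA11 and cKO at 7 dpi, then 70, 8 and 3 at 21 dpi. The late subtype gave 182, 83 and 3 nuclei at 7 dpi, then 1330, 100 and 1 at 21 dpi, and sub-cluster 0, which carried too few markers for a name, gave 64, 131 and 21 and then 2038, 2296 and 93. Arachnoid-like nuclei ran from 38 to 647, leptomeningeal-like nuclei from 79 to 438 and proliferating nuclei from 1 to 182. At 21 dpi the arachnoid-like subtype, an unnamed cluster joined to the class, gave 647 of 4324 fibroblast-like nuclei in Ctrl, 396 of 2928 in ADWA11 and 425 of 907 in cKO. Sub-cluster 6 was almost all cKO at 21 dpi, with 305 of its 323 nuclei. Acan was a gene of the late, myofibroblast and proliferating subtypes, with 159 and 54.8 CPM in late nuclei of Ctrl at 7 and 21 dpi and 59.3 CPM in myofibroblasts at 7 dpi, against 2.32 and 6.39 CPM in leptomeningeal-like nuclei and 1.026 and 2.12 CPM in arachnoid-like nuclei. Matn4 was led by the late subtype, at 311 to 491 CPM in the 4 libraries with at least 50 such nuclei. Vcan was led by myofibroblasts at 7 dpi, with 817, 594 and 395 CPM in Ctrl, ADWA11 and cKO. Tnc measured 283 CPM in myofibroblasts and 351 CPM in proliferating nuclei of Ctrl at 7 dpi, and 52.6 CPM in leptomeningeal-like nuclei.

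Within single subtypes several of the differences remained. In myofibroblasts of cKO at 7 dpi, 5 members were lower, against 9.12% of genes called in either direction. They were Acan (log2 ratio -4.75, interval -7.80 to -2.89, on 2 UMIs against 539), Matn4 (-4.13, interval -7.19 to -2.27, on 2 UMIs), Tnc (-2.03), Cspg4 (-1.46) and Vcan (-1.05). In myofibroblasts of ADWA11 at 7 dpi, 4 members were lower against 8.92% of genes, with Acan at -3.08, Cspg4 at -1.52, Tnc at -1.44 and Matn4 at -1.39. In late nuclei of ADWA11 at 7 dpi Acan (-1.53) and Cspg4 (-1.27, at background in both libraries) were called lower, where 6.57% of genes were called, while Matn4 was 351 CPM against 311 in Ctrl. Matn4 was thus called lower in myofibroblasts of ADWA11 and not in its late nuclei, and the difference between the subtypes was not tested.

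At 21 dpi the calls differed by subtype and some lay at background. In sub-cluster 0 of cKO, Matn4 was at -5.66 (-10.97 to -3.18, on 1 UMI) and Tnc at -4.97 (-7.25 to -3.42, on 3 UMIs), with 7.57% of genes called, and Vcan at 49.3 CPM lay beside 46.9 CPM in Ctrl. Tnr was called higher there at 1.29, on 12 UMIs and at a level near background. In sub-cluster 0 of ADWA11, Tnc was at -2.27 and 6.47% of genes were called, while Acan was 8.69 CPM against 6.23 in Ctrl and Matn4 53.8 against 58.1. The lower Acan and Matn4 levels of the whole fibroblast-like class in ADWA11 at 21 dpi were not called in sub-cluster 0, its largest subtype, and late nuclei, the subtype with the most of both, were 100 against 1330 in Ctrl. Those late nuclei carried Acan at 47.4 CPM against 54.8 in Ctrl, Matn4 at 491 against 330 and Tnc at 217 against 88.3, of which Tnc passed the call at 1.30. Hapln1 and Ptprz1 were called higher in them on 6 and 8 UMIs, and Vcan was lower at -2.76, where 7.41% of genes were called. In arachnoid-like nuclei of cKO, Tnc (-3.12), Matn4 (-2.87) and Vcan (-1.27) were lower against 9.92% of genes, but Matn4 was at background there, at 18.6 CPM in Ctrl beside 21.1 CPM in myeloid-like nuclei. In leptomeningeal-like nuclei Matn4 (-4.45, interval -9.78 to -1.91, on 1 UMI) and Vcan (-2.38) were lower against 8.39%.

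With time, Vcan and Tnc were called lower and Matn4 higher in each of the 3 groups. From 7 to 21 dpi Vcan differed by -2.28 in Ctrl, -3.84 in ADWA11 and -3.16 in cKO on the log2 scale, and Tnc by -1.07, -1.86 and -2.89. Matn4 differed by 1.36, 1.38 and 1.67, the last on 4 UMIs at 7 dpi and 49 at 21 dpi. Acan was lower at 21 dpi in Ctrl at -1.26. In Ctrl 1 member was called higher and 4 lower, with 19.6% of all genes called, in ADWA11 1 and 5, with 19.4%, and in cKO 2 and 2 of 7 tested, with 12.8%. Ncan, Ptprz1 and Tnr in ADWA11 and Bcan in cKO were among these calls at background levels. These comparisons share libraries with the treatment comparisons.

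Osteoblast-like nuclei, led by the bone genes Col22a1, Bglap and Ibsp, were a small class with a high Tnc level. They numbered 52, 100 and 2 in Ctrl, ADWA11 and cKO at 7 dpi, then 218, 314 and 3 at 21 dpi, so that no cKO level is given. Their Tnc level was 1225 and 1032 CPM in Ctrl and ADWA11 at 7 dpi and 1421 and 2052 CPM at 21 dpi, above the fibroblast-like level of each of these libraries. They held 9.45% and 16.02% of all Tnc UMIs of Ctrl and ADWA11 at 7 dpi, and 25.1% and 68.9% at 21 dpi. Ptprz1, a receptor-type phosphatase made as a proteoglycan, was at 86.3 and 101 CPM at 7 dpi and 192 and 355 CPM at 21 dpi, where fibroblast-like nuclei had 4.47 to 10.0 CPM over the 6 libraries. A few nuclei carried much of it, since 5 nuclei held all 38 Ptprz1 UMIs in Ctrl and 64.5% in ADWA11 at 7 dpi, and 35.3% and 46.3% at 21 dpi. Matn4 reached 132 and 129 CPM in Ctrl and ADWA11 at 21 dpi. The paper's methods state that only lesions were dissected, while its results also name residual brain parenchyma in this experiment. Where these nuclei came from was not tested.

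Oligodendrocyte precursor-like nuclei, taken with committed and proliferating precursors, carried Tnr, Vcan and Ptprz1 in every library. Tnr encodes tenascin R, a tenascin of the central nervous system, and lies at 1:159523769-159931729 on the plus strand (ENSMUSG00000015829). Its level in them was 7869, 8231 and 7206 CPM in Ctrl, ADWA11 and cKO at 7 dpi, then 7678, 6858 and 6520 CPM at 21 dpi, the same within 2-fold in all. Vcan ran from 1487 to 3033 CPM and Ptprz1 (6:22875502-23052916, plus strand, ENSMUSG00000068748) from 2296 to 3192 CPM. Committed precursors of the libraries with at least 50 such nuclei had more Tnr and Bcan than the class, at 8479 to 11810 and 280 to 410 CPM, but Ptprz1 of only 401 to 467 CPM in the 7 dpi libraries and Cspg4 of 2.89 to 15.0 CPM. Cspg4 in the whole precursor class was 55.5, 67.2 and 136 CPM at 7 dpi, then 113, 153 and 183 CPM at 21 dpi, higher in cKO than in Ctrl at 7 dpi (log2 ratio 1.29, interval 1.02 to 1.57) and in nuclei of both sexes. This was the opposite direction to Cspg4 in fibroblast-like nuclei of the same libraries.

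Tnc in oligodendrocyte precursor-like nuclei measured 93.0, 54.0 and 36.7 CPM in Ctrl, ADWA11 and cKO at 7 dpi. It measured 25.2, 0 and 1.71 CPM at 21 dpi, on 26, 0 and 2 UMIs. It was lower in cKO at both times, at log2 ratios of -1.34 (-1.70 to -0.999) and -3.89 (-7.01 to -1.89), and lower at 21 than at 7 dpi in Ctrl at -1.88. In ADWA11 at 21 dpi the class was 31 nuclei, and the ratio to Ctrl was -1.27 or lower, a bound taken at 3 UMIs in that library. Both 21 dpi calls rested on few nuclei, since 5 nuclei held 22 of the 26 Tnc UMIs in Ctrl, and without the 5 top nuclei too few UMIs were left for a call. At 7 dpi the cKO ratio without them was -1.28. Acan, at 23.3, 17.6 and 5.02 CPM at 7 dpi, was lower in cKO at -2.22 (-3.20 to -1.35), on 13 UMIs, 9 of them in 5 nuclei. The 8 fibroblast markers, among them Pdgfra, also a precursor gene, summed to 746, 481 and 424 CPM in precursor-like nuclei at 7 dpi. At 21 dpi they summed to 838, 738 and 470 CPM in Ctrl, ADWA11 and cKO. Their part in the Tnc and Acan levels was not tested. In cKO 1 member was higher and 2 lower at 7 dpi and 0 and 1 at 21 dpi, where 9.19% and 10.4% of genes were called, and in ADWA11 1 was lower at each time, where 7.97% and 6.80% were. From 7 to 21 dpi 3, 2 and 2 members were called in Ctrl, ADWA11 and cKO, against 11%, 7.75% and 5.64% of genes.

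Astrocyte-like nuclei carried Vcan, Bcan, Ncan, Ptprz1, Hapln1, Matn4, Tnc and Tnr above background in all 6 libraries. Bcan and Ncan encode brevican and neurocan, lecticans of the brain. Bcan lies at 3:87987531-88000230 on the minus strand (ENSMUSG00000004892) and Ncan at 8:70093085-70120873 on the minus strand (ENSMUSG00000002341). Bcan was 147, 137 and 253 CPM in astrocyte-like nuclei of Ctrl, ADWA11 and cKO at 7 dpi, then 155, 190 and 269 CPM at 21 dpi, and no treatment comparison passed the call. Ncan was 199, 179 and 65.9 CPM at 7 dpi, then 47.0, 69.4 and 42.3 CPM at 21 dpi. Ctrl and ADWA11 at 7 dpi thus stood above the 4 other libraries. Hapln1 (13:89539796-89611652, plus strand, ENSMUSG00000021613), 43.66 kb from Vcan on the opposite strand, was higher there than in fibroblast-like or precursor-like nuclei of each library, at 17.04 to 54.4 CPM. Ptprz1 ran from 1202 to 1812 CPM with no treatment difference past 2-fold.

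In astrocyte-like nuclei 5 of 9 members were lower in cKO than in Ctrl at 7 dpi, where 16.6% of all genes were called. Vcan was 197 against 1204 CPM (log2 ratio -2.61, interval -2.77 to -2.45) and Tnr 435 against 2635 CPM (-2.60, interval -2.71 to -2.49). Ncan was at -1.60, Matn4 at -1.69 and Tnc at -1.12, of which Tnc was no lower in male nuclei. At 21 dpi Tnr alone was lower, at 223 against 857 CPM (-1.94), where 10.2% of genes were called. In ADWA11 the calls were 1, Cspg4 at -1.45 on 17 UMIs and at background, at 7 dpi and 0 at 21 dpi, where 6.55% and 5.24% of genes were called. Vcan and Matn4 were lower in nuclei of both sexes in all 4 treatment comparisons, though not called in ADWA11, and Tnr in cKO at both times. The share of all genes lower in both sexes is not given here. From 7 to 21 dpi Vcan was lower at -3.11, -3.30 and -1.49 in Ctrl, ADWA11 and cKO, and 4, 5 and 4 members were called in all, against 15.0%, 16.9% and 9.47% of genes. Acan was higher with time in each group, in Ctrl with 17.4 against 2.69 CPM on 117 and 3 UMIs (log2 ratio 2.69, interval 1.11 to 4.99), a direction that turned with log-normalised clustering.

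The astrocyte-like class of the libraries with high Vcan, Tnr and Ncan also carried more RNA of oligodendrocyte precursor markers. The 8 precursor markers summed to 3944, 3287 and 1635 CPM there in Ctrl, ADWA11 and cKO at 7 dpi and to 2546, 2242 and 1657 CPM at 21 dpi, mostly from Lhfpl3 and Sox6. Pdgfra, a gene of precursors and also of fibroblasts, was 66.4, 34.1 and 7.96 CPM at 7 dpi and Sox10, of the whole lineage, 88.9, 44.3 and 16.4 CPM. Both thus stood in the same order as Vcan and Tnr at 7 dpi, as did Lhfpl3. Other precursor markers did not keep the whole order. Sox6, Gria4 and Olig2 were highest in ADWA11 at 7 dpi but, like Pdgfra, Sox10 and Lhfpl3, lowest in cKO. They measured 1120, 73.0 and 2.21 CPM in cKO against 1402, 207 and 7.18 CPM in Ctrl. Olig1 ran the other way at 0.898, 3.10 and 8.85 CPM, on 1, 7 and 20 UMIs. Gpr17, of committed precursors, was at 0 to 3.55 CPM over the 6 libraries. The 8 astrocyte markers summed to 3966, 4285 and 11771 CPM at 7 dpi, then 6393, 5691 and 10933 CPM at 21 dpi, highest in both cKO libraries, where Tnr was lowest. Gfap, an astrocyte filament gene, ran from 634 to 949 CPM. Aqp4, the water channel of astrocyte endfeet, was lowest in cKO at both times, at 694, 685 and 384 CPM at 7 dpi, then 803, 921 and 589 CPM at 21 dpi. The 8 fibroblast markers summed to 542, 363 and 106 CPM in astrocyte-like nuclei at 7 dpi, then 1020, 779 and 91.1 CPM at 21 dpi, lowest in cKO at both times. The part of these differences in the member levels was not tested.

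**Figure D2:**
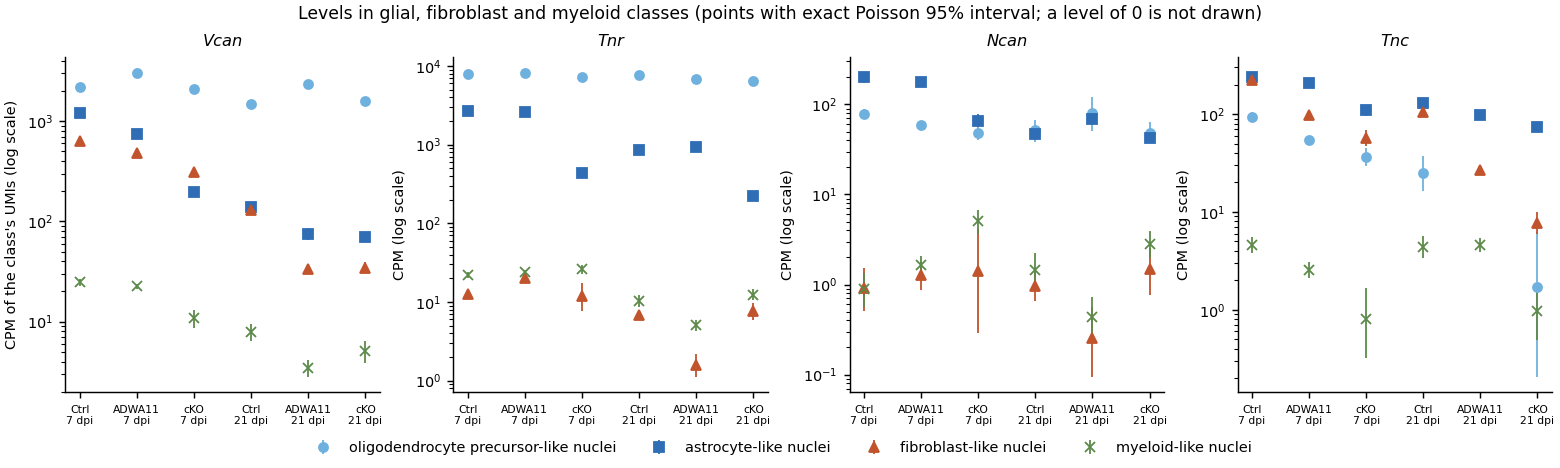
Levels of Vcan, Tnr, Ncan and Tnc in CPM on log axes, a point per library for oligodendrocyte precursor-like nuclei (light circles), astrocyte-like nuclei (dark squares), fibroblast-like nuclei (triangles) and myeloid-like nuclei (crosses, the background), with exact Poisson 95% intervals. Precursor Tnr stays between 6520 and 8231 CPM while astrocyte Tnr runs from 223 to 2635 CPM, and fibroblast Tnr and Ncan lie at the crosses.

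**Figure D3:**
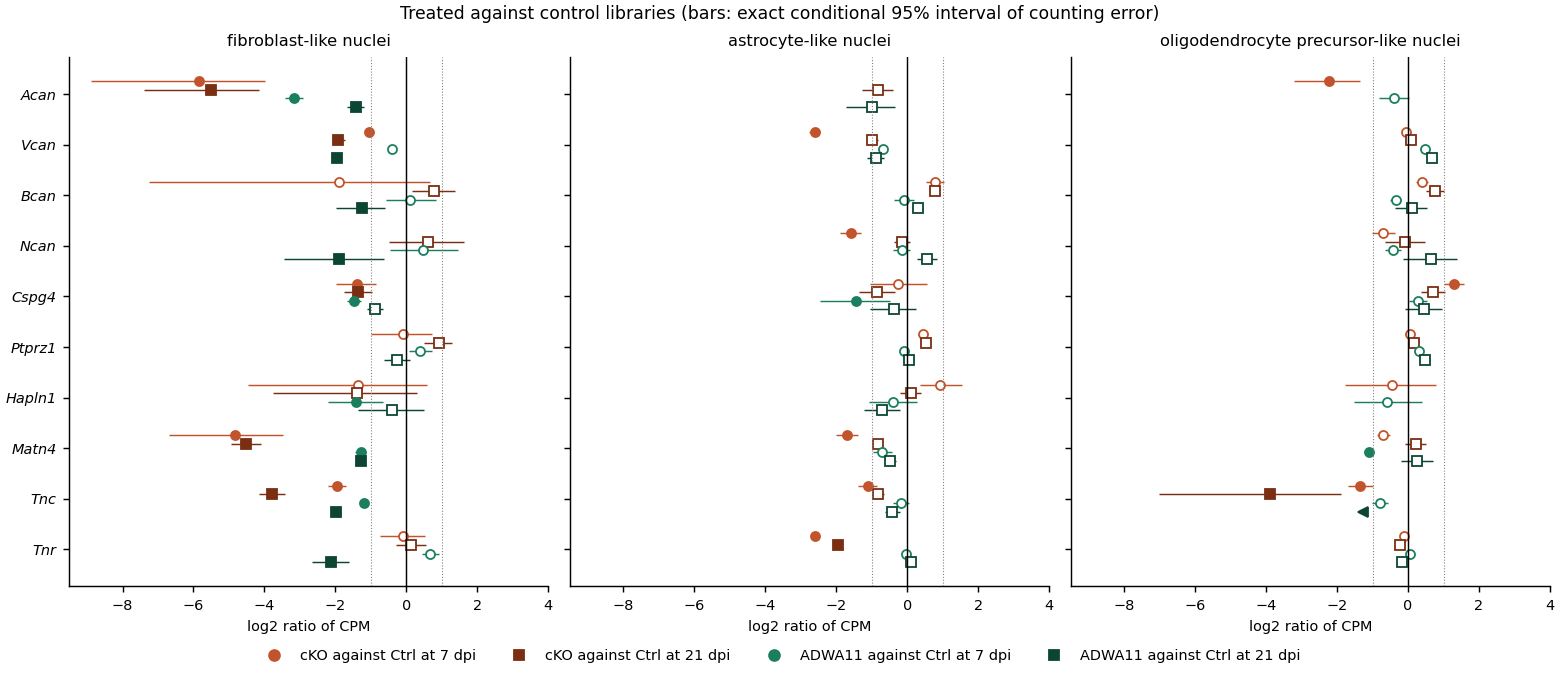
Log2 ratios of CPM for the 10 members in cKO and ADWA11 against Ctrl, in fibroblast-like, astrocyte-like and oligodendrocyte precursor-like nuclei, with exact conditional 95% intervals, filled symbols for called values, open ones for the rest, dotted lines at 2-fold and a left-pointing triangle for an upper bound. The filled symbols are far to the left for Acan, Matn4 and Tnc in fibroblast-like nuclei, down to -5.84, and only Cspg4 in precursors, at 1.29, lies to the right among them.

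The sources of each member were then counted, as the share of its UMIs in a library that came from fibroblast-like nuclei and from glial nuclei, here astrocyte-like, precursor-like and mature oligodendrocyte-like nuclei together. In Ctrl, fibroblast-like nuclei held 74.6% of Acan UMIs at 7 dpi and 65.7% at 21 dpi, and glial nuclei 5.85% and 11.7%. For Tnc the fibroblast share was 63.6% and 47.3% and the glial share 9.26% and 13.2%, and for Vcan 48.8% and 50.1% against 35.1% and 30.6%. Matn4 passed from 35.9% fibroblast at 7 dpi to 51.0% at 21 dpi. Bcan, Ncan, Ptprz1 and Tnr were mostly glial in both Ctrl libraries, with Tnr 83.0% and 76.1% glial and 0.672% and 1.19% from fibroblast-like nuclei. In Ctrl the group was thus divided, with more Acan, Tnc and Vcan from fibroblast-like than from glial nuclei and the reverse for Bcan, Ncan, Ptprz1 and Tnr.

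In cKO no member had more UMIs from fibroblast-like than from glial nuclei, except Acan at 7 dpi when male nuclei alone were counted (2 against 1 UMIs). Fibroblast-like nuclei held 1.04% of Acan UMIs at 7 dpi and 3.39% at 21 dpi, 0.336% and 2.81% of Matn4, 14.4% and 7.61% of Tnc, 7.01% and 7.80% of Vcan and 1.78% and 6.22% of Cspg4. Glial nuclei of cKO at 21 dpi held 69.5% of Acan, 66.5% of Tnc and 65.7% of Vcan UMIs, with astrocyte-like nuclei alone at 60.2% of Acan and 65.3% of Tnc. At 7 dpi neuron-like nuclei held 84.9% of Acan, 86.0% of Ncan and 67.7% of Tnr UMIs of the cKO library, and they held 76.2% of all its UMIs. In that library 146 of the 192 Acan UMIs were from inhibitory neuron-like nuclei, a class that over all libraries also held sub-clusters led by Drd1 and by Drd2. In ADWA11 the fibroblast share of Acan was 38.2% at 7 dpi, beside 40.0% from glia, and 57.2% at 21 dpi, and that of Tnc was 52.3% and 11.1%.

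Counted over members, fibroblast-like nuclei held more UMIs than glial nuclei for 4 members in Ctrl at 7 dpi (Acan, Vcan, Cspg4, Tnc) and 5 at 21 dpi (the same with Matn4). In ADWA11 the numbers were 1 (Tnc) and 4 (Acan, Cspg4, Matn4, Tnc), and in cKO 0 and 0, which gives 14 of 60 member and library pairs. Several sides turned to fibroblast-like under other settings, Vcan in ADWA11 at 21 dpi with called doublets left out (761 against 637 UMIs), Acan in ADWA11 at 7 dpi (167 against 163) and Matn4 in Ctrl at 7 dpi (1062 against 996) with mixed fibroblast sub-clusters kept. Hapln1 turned in female nuclei of Ctrl at 7 dpi (32 against 16) and in male nuclei of ADWA11 at 21 dpi (14 against 7). Over all genes the ratio of fibroblast-like to glial UMIs was 3.98, 2.30 and 0.273 in Ctrl, ADWA11 and cKO at 7 dpi, then 3.69, 7.96 and 0.649 at 21 dpi. Both the level per nucleus and the number of nuclei of each class enter the split. The share of all genes with more UMIs from fibroblast-like than from glial nuclei is not given here. For Acan and Tnc in Ctrl at 7 dpi the ratio was 12.8 and 6.87, above the 3.98 of all genes. For Cspg4 and Vcan it was 3.24 and 1.39, below it. In Ctrl at 21 dpi Acan (5.60) was above the 3.69 of all genes, while Tnc (3.58), Cspg4 (2.88), Matn4 (2.30) and Vcan (1.64) were below it. In ADWA11 at 21 dpi Acan (6.47), Cspg4 (3.42), Matn4 (2.64) and Tnc (2.48) were all below the 7.96 of all genes. In cKO at 21 dpi Acan (0.0488), Matn4 (0.0330) and Tnc (0.114) were all below the 0.649 of all genes. At 7 dpi Tnc was above the ratio of all genes in both treated groups, at 2.68 against 2.30 in ADWA11 and 0.340 against 0.273 in cKO.

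**Figure D4:**
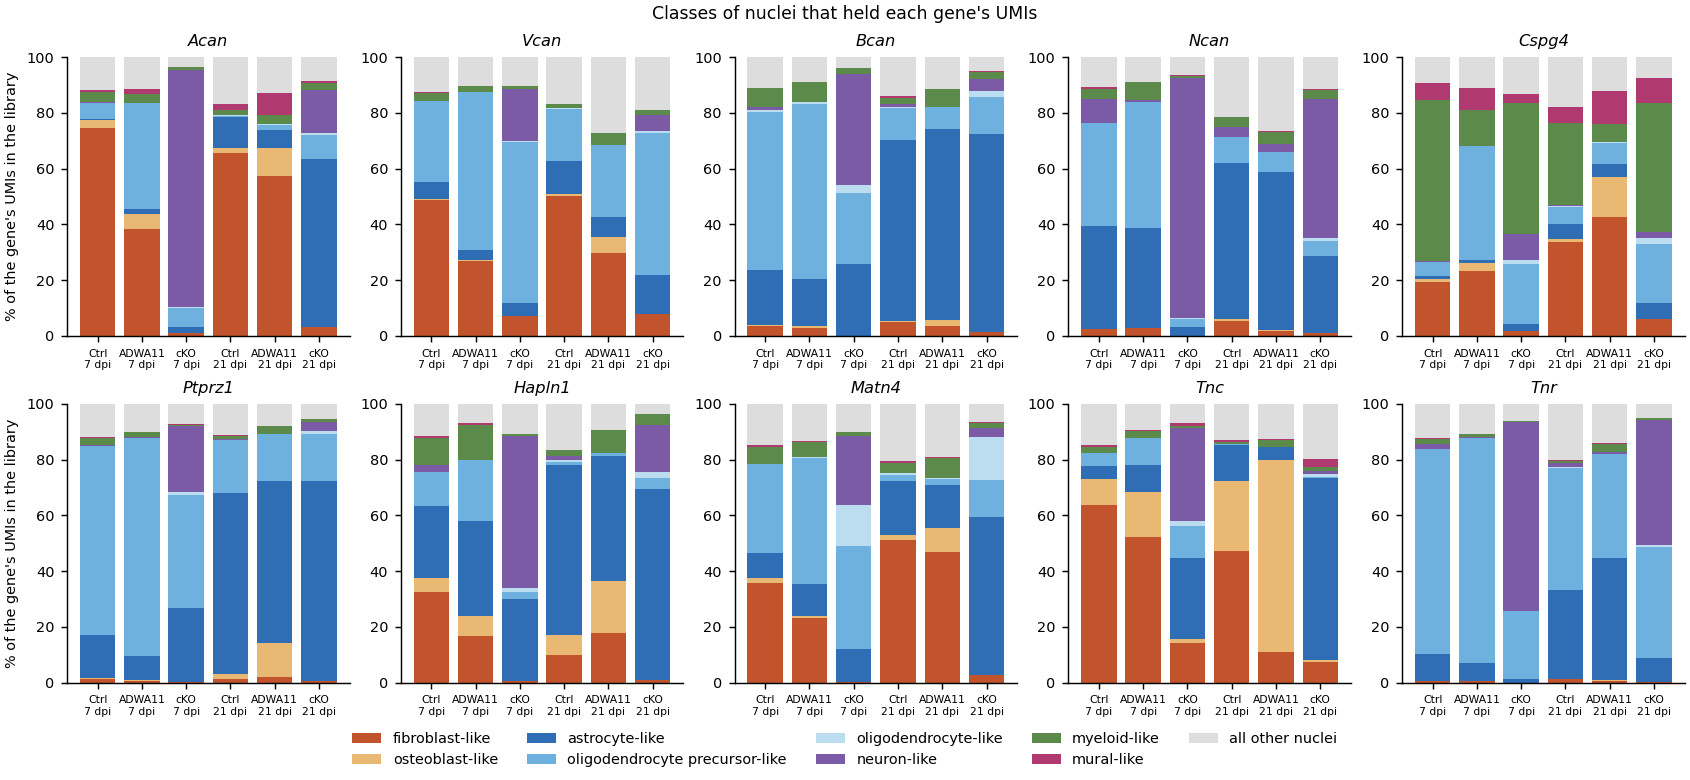
Share of each member's UMIs, in % of the library's UMIs of that gene, held by fibroblast-like, osteoblast-like, astrocyte-like, oligodendrocyte precursor-like, mature oligodendrocyte-like, neuron-like, myeloid-like, mural-like and all other nuclei, with a stacked bar per library. Fibroblast-like nuclei lead Acan in Ctrl (74.6% and 65.7%), osteoblast-like nuclei lead Tnc in ADWA11 at 21 dpi (68.9%), and neuron-like nuclei lead Acan in cKO at 7 dpi (84.9%).

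Over whole libraries, where fewer nuclei of a class and less RNA per nucleus cannot be told apart, Acan was 21.4, 4.45 and 1.59 CPM in Ctrl, ADWA11 and cKO at 7 dpi, then 15.2, 4.61 and 2.20 CPM at 21 dpi. It was the member called lower in all 4 treatment comparisons, at -3.75 and -2.79 in cKO and -2.27 and -1.72 in ADWA11. Tnc was lower in cKO at -3.88 and -2.69 and not called in ADWA11. Cspg4 in cKO at 7 dpi was called lower at -2.01 and was at 0.22 without neuron-like nuclei. For the other members called lower there, values without neuron-like nuclei are not given here. Those calls are therefore not shown to hold without them. In cKO 1 member was higher and 5 lower at 7 dpi, against 49.5% of all genes called, and 2 higher and 3 lower at 21 dpi, against 23.2%. Ncan was the member higher at both times, at 1.81 and 1.35, joined by Bcan at 1.15 at 21 dpi. In cKO at 7 dpi neuron-like nuclei held most of the Ncan UMIs and most UMIs of all genes. In ADWA11 1 was higher and 2 lower at 7 dpi, against 10.6% of genes, and 0 and 8 at 21 dpi, against 15.6%, when the library held 31 precursor-like and 20 mature oligodendrocyte-like nuclei.

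Cspg4 had another source that the marker classes of scar matrix leave out, and it was singled out after its values were seen. Myeloid-like nuclei carried it at 70.4 CPM in Ctrl, 4.26 in ADWA11 and 88.0 in cKO at 7 dpi and at 38.7, 1.19 and 37.5 CPM at 21 dpi. Ctrl and cKO lay within 2-fold of each other at each time and ADWA11 was far below both. The log2 ratio to Ctrl was -4.05 (-4.27 to -3.83) in ADWA11 at 7 dpi and -5.03 (-5.54 to -4.55) at 21 dpi, where 5.25% and 10.4% of genes were called lower, and in cKO it was 0.32 and -0.05. The share of myeloid-like nuclei with a Cspg4 UMI was 19.3%, 2.53% and 19.3% at 7 dpi, then 11.97%, 0.659% and 11.7% at 21 dpi, on 2170 to 5781 nuclei with median depths of 3356 to 6760 UMIs. The ADWA11 level at 21 dpi lay below the 2.75 CPM of T and NK cell-like nuclei, taken as the background. In 3 clusters Cspg4 was also called lower in ADWA11 at 7 dpi, from 80.3 to 5.56 CPM in cluster 6, led by Plau, Cd36 and Mmp12, from 164 to 7.32 CPM in the proliferating cluster 14 and from 17.99 to 2.67 CPM in cluster 0, led by Ms4a7, Stab1 and Mrc1. Cluster 4, led by Siglech and carrying 74.9 CPM in Ctrl at 7 dpi, gave 1321 nuclei in that library and 19 in ADWA11, where it was 35.1 CPM and not called (log2 ratio -1.09, interval -2.72 to 0.14). Cluster 1 held too few UMIs for a call at 7 dpi, 7 in ADWA11 and 3 in Ctrl, at 1.97 against 14.9 CPM (log2 ratio -2.92, interval -5.05 to -0.34). At 21 dpi the class was made up of different clusters in the 2 groups. Cluster 1, led by Fabp4, held 4698 of the 5615 myeloid-like nuclei of ADWA11 and 350 of the 2983 of Ctrl, and carried 1.31 CPM against 4.80 CPM in Ctrl (log2 ratio -1.87, interval -2.95 to -0.63). Cluster 4 gave 1 nucleus against 565. Cspg4 was also called lower at 21 dpi within clusters 0, 6 and 14, with 0 UMIs in 502, 110 and 44 nuclei of ADWA11 and log2 ratios of -4.17, -3.74 and -2.41 or lower, bounds taken at 3 UMIs. In cKO against Ctrl, cluster 14 was called higher at 21 dpi, at 107 against 45.5 CPM on 25 and 95 nuclei (log2 ratio 1.23, interval 0.41 to 2.05). Cluster 0 was at -0.74 and -0.84 in cKO at 7 and 21 dpi, not called. Myeloid-like nuclei held 57.8% of all Cspg4 UMIs in Ctrl at 7 dpi, more than fibroblast-like (19.5%) or mural-like nuclei. They also held more than fibroblast-like nuclei in cKO, with 766 against 29 UMIs at 7 dpi and 469 against 63 at 21 dpi. They held fewer in Ctrl at 21 dpi (536 against 613) and in ADWA11 at 7 dpi (187 against 336) and 21 dpi (38 against 250). Mural-like nuclei, the pericytes and smooth muscle cells for which NG2 is a marker, carried 145 to 282 CPM in the libraries with at least 50 of them.

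**Figure D5:**
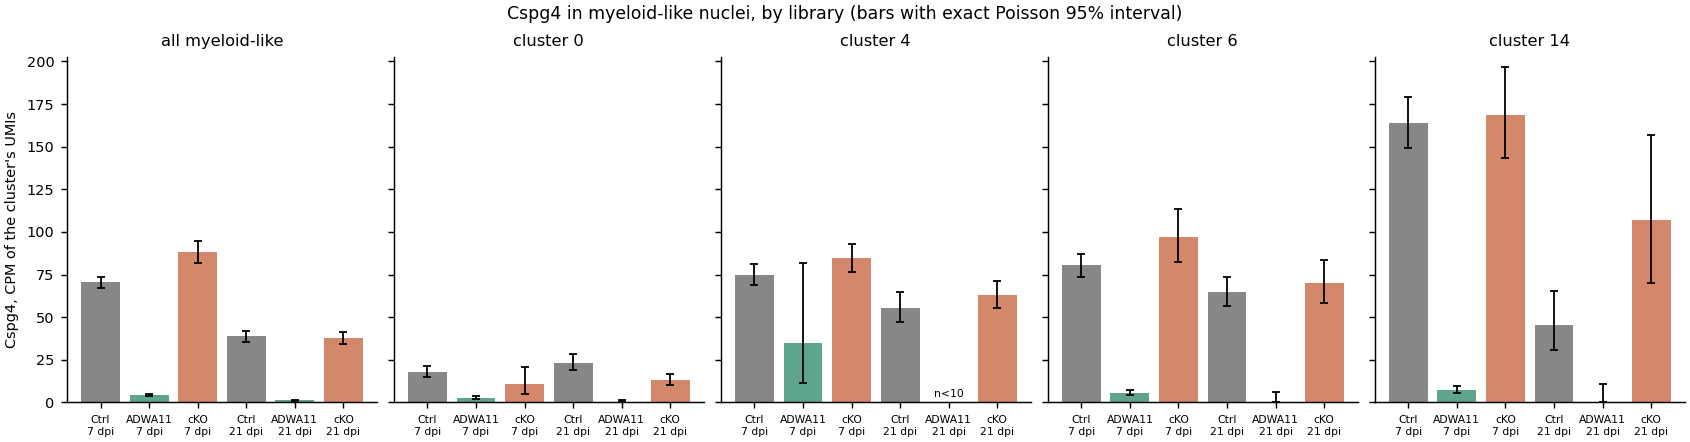
Cspg4 in CPM on an axis from 0 in all myeloid-like nuclei and in 4 of their clusters, with a bar per library (grey Ctrl, green ADWA11, orange cKO) and exact Poisson 95% intervals. In all myeloid-like nuclei the ADWA11 bars stand at 4.26 and 1.19 CPM beside 70.4 and 38.7 CPM in Ctrl, and a cluster with under 10 nuclei in a library has no bar.

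Other genes of the same matrix were counted from lists in fibroblast-like nuclei, for the 4 treatment comparisons, in which 9.93% and 15.7% of all genes were called in cKO at 7 and 21 dpi and 9.09% and 7.21% in ADWA11. The lists are short, and several of the counts lie near these shares. Levels of the list genes were not set against the background used for the members, so free RNA of other classes may enter them. Of 6 other chondroitin sulphate proteoglycans 2 and 1 were higher in cKO at 7 and 21 dpi with 0 lower, and 1 was lower in ADWA11 at each time, with Spock1, a testican, at 3.49 in cKO at 7 dpi on 32 UMIs. Of 18 to 20 tested genes that build the chondroitin sulphate chains, 1 was lower in cKO at 7 dpi, 3 lower and 2 higher at 21 dpi, with Chst14, a dermatan sulphotransferase, at -1.48 on 5 UMIs, and 1 was higher in ADWA11 at 7 dpi and 0 changed at 21 dpi. The median log2 ratio of these genes was -0.09, -0.21, -0.01 and -0.02 in the 4 comparisons, beside -1.39, -1.38, -0.79 and -1.35 for the members. Of 6 to 7 genes of hyaluronan synthesis and breakdown 2 were higher in cKO at 21 dpi, with Has2, a hyaluronan synthase, at 1.72, and 0 passed the call in the other 3 comparisons. Among other link proteins, matrilins and tenascins, 4 to 6 of which were tested, Tnn was lower in ADWA11 at 7 dpi at -2.81 on 10 UMIs, 1 to 2 genes being called in each comparison. Of the lecticanases, proteases that cut lecticans, 0 was lower in these 4 comparisons and 1 was higher in each but cKO at 7 dpi, with Adamts1 at 1.23 in ADWA11 at 7 dpi. From 7 to 21 dpi 3 of them were lower in each group, where 19.6%, 19.4% and 12.8% of all genes were called in Ctrl, ADWA11 and cKO. Of 8 to 9 receptors of the matrix, 1 was higher and 1 lower in cKO at 7 dpi, 3 were higher at 21 dpi and 0 passed the call in ADWA11, with Cntn1 at 2.10 in cKO at 7 dpi.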

How the data were processed

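Nuclei were sorted by DAPI and profiled with 10x 3′ chemistry. The deposited values are UMI counts per gene and barcode, which the authors made with Cell Ranger (7.2.0 per the file headers, 7.1.0 in the submitters' processing notes) on mm10, with no normalization. Barcodes in the outer 2.5% of UMI or gene counts, or the top 2.5% of mitochondrial share, were removed per library. Called doublets were kept, and left out in an alternative. The remaining nuclei were clustered with SCTransform (Seurat 5.3.0, sctransform 0.4.2, 30 components, resolution 0.5, fibroblasts 0.2) without the 10 members. Clusters were named from markers. After clusters were seen, sub-clusters with over 50% called doublets, or another class's markers at 20% or more of that class's level, were set aside as mixed. Then 1 unnamed cluster of 2205 nuclei was joined to fibroblasts as the arachnoid-like subtype, by arachnoid markers among its top 10 genes. UMIs were summed per class and library. Ratios and intervals came from scipy 1.17.1. The ratio call alone was tested on simulated class sums, with counting error and no variation between mice. With 1 library per group no p-value was computed. Total depth was 64798965 to 140310354 UMIs per library. All 10 members were described, with at most 1 gene named per list, that with the largest called ratio. Members and lists were chosen with earlier results of these data known.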

Additional observations from a re-analysis of the deposited data

Results flagged for a closer look

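Ptprz1 over whole libraries differed in sign between the times. In ADWA11 against Ctrl its log2 ratio was 1.01 at 7 dpi, at 352 against 175 CPM, and -1.28 at 21 dpi, at 73.8 against 179 CPM. The difference between the times was not tested. The ADWA11 library held 888 oligodendrocyte precursor-like nuclei at 7 dpi and 31 at 21 dpi, beside 454 and 131 in Ctrl.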

How the results depend on the processing

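No paired analysis was possible because each group was 1 library, the labels give no replicate numbers and nuclei of 1 sex in 2 libraries come from different mice, so values by sex are given with no test. Members called over the 4 treatment comparisons numbered 7 in astrocyte-like nuclei, and 11 with log-normalised clustering, without called doublets, without the 5 top nuclei per gene and class, or with female nuclei alone. In precursor-like nuclei they numbered 6, and 3 with log-normalised clustering. Subtracting the myeloid level leaves no Cspg4 in Ctrl at 7 dpi, since it exceeds the level in both classes, so the ADWA11 values of 5.55 in fibroblast-like and 0.28 in astrocyte-like nuclei were set against a floor of 3 UMIs, their sign follows from that and they bear on nothing. Astrocyte Tnc in cKO at 7 dpi was 0.018 in male nuclei, and astrocyte Acan from 7 to 21 dpi in Ctrl was -0.18 with log-normalised clustering. Without neuron-like nuclei the whole-library values of Cspg4 in cKO at 7 dpi, and of Ptprz1 and Tnc from 7 to 21 dpi in cKO, were 0.22, -0.29 and -0.31. TMM scaling shifted every gene by 0.40 in whole libraries of cKO at 7 dpi, by -0.47 from 7 to 21 dpi in cKO and by -0.13 in fibroblast-like nuclei of cKO at 7 dpi. The 22 calls in fibroblast-like nuclei numbered 17 to 25 over the alternatives run. The share of all genes called under each alternative is not given here, so none of these counts is set against it. Leaving out arachnoid-like nuclei or sub-cluster 6 was chosen after seeing the data. The causes of these changes were not tested.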

Other observations

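The genes most like 3 of the members were read over 59 sums of a class in a library, each of at least 50 nuclei, which share libraries and depth. Over 16445 genes, Pearson's r of log2(CPM + 1) with Acan was highest for Igsf10 (0.77), 4833422C13Rik (0.75) and Dpysl3 (0.73). With Bcan it was highest for Ptprz1 (0.92), Rfx4 (0.89) and Nr2e1 (0.89). With Tnc it was highest for Ptar1 (0.85), 8030451A03Rik (0.83), which overlaps Tnc on the opposite strand, and Pth1r (0.83), the parathyroid hormone receptor of bone cells.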
